A study of Homo sapiens with 18 samples.

Results

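MITF, TFEB, TFE3 and TFEC form one family of transcription factors, and all 12 probe sets that the platform annotation gives to these 4 genes were followed on 18 Affymetrix arrays that cover 19775 named genes. A probe set is a group of short probes read together as 1 measurement of a transcript. MITF had 3 probe sets, TFEB 2, TFE3 4 and TFEC 3. The arrays measured RNA of 3 established BRAF-mutant human melanoma lines, SKMEL5, WM2664 and A375, so a difference among them is one between 3 lines. Cells received A-485, an inhibitor of the acetyltransferase activity of the coactivators p300 and CBP, or its solvent DMSO.

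Each line was sampled after 6 h and 24 h, with 2 DMSO arrays and 1 A-485 array at each time. All cells were cultured in the same serum-supplemented medium, and every A-485 sample carries a labelled dose of 3 mM, a unit that was not checked here. The study set lines sensitive to the compound against a resistant one, and the labels do not name which is which. No A-485 group has a replicate, so its tests borrow the spread of the DMSO pairs. Whether the DMSO replicates were separate cultures is not labelled, so a p-value here reflects the spread among these arrays alone, and that spread may be technical.

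The 4 proteins share a basic helix-loop-helix leucine zipper, bind DNA as dimers with each other, and recognise the same short E-box sequences. MITF directs the melanocyte lineage: it switches on pigment, survival and cell cycle genes, and melanomas range from MITF-high to MITF-low states. TFEB and TFE3 are held in the cytoplasm by the nutrient kinase mTORC1 and enter the nucleus on starvation, where they switch on lysosome and autophagy genes. TFEC is mostly known from macrophages. Melanocytes transcribe MITF mainly from the M promoter, the most downstream of several starts, which SOX10, PAX3, CREB and LEF1 are known to drive.

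Promoter windows from RefSeq (GRCh38.p14), the 250 bases before a start, are shown for the members whose transcripts changed, because p300 and CBP are the coactivators that CREB recruits. They are the most upstream of the 3 MITF starts listed (chr3:69739214-69739463, plus strand), the M start (chr3:69936342-69936591, plus strand) and the single TFE3 start (chrX:49043358-49043607, minus strand). Capitals mark matches to the cyclic AMP response element TGACGTCA, which CREB binds, and to the LEF1 motif CTTTGAT, both searched on both strands.
MITF upstream start: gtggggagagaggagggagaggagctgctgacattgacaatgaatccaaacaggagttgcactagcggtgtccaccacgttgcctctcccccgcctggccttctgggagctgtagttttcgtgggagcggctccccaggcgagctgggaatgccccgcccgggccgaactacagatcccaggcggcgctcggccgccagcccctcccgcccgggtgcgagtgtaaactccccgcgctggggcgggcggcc
MITF M start: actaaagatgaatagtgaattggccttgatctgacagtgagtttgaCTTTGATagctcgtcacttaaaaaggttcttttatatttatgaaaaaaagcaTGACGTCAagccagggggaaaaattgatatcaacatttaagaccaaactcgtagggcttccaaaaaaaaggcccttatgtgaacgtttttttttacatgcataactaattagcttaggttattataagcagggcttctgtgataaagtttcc
TFE3 start: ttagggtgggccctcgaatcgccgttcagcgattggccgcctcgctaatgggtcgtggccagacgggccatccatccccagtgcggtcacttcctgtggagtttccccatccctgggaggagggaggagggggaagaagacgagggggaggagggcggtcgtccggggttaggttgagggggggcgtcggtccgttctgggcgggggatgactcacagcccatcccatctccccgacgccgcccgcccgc

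The M window held the response element from 152 to 145 bases before the start and the LEF1 motif from 204 to 198 bases before it. Over all 35116 RefSeq windows of this length, 1.65% held TGACGTCA and 2.26% held CTTTGAT. Neither motif was found in the windows of the other MITF starts or of the starts of TFEB, TFE3 and TFEC. The E-boxes CACGTG and CATGTG, bound by the family itself, were in none of the members' windows, against 6.34% and 9.42% of all windows. GC content was 34.8% in the M window, 68.0% in the upstream MITF window and 68.4% in the TFE3 window. These letters describe the windows only, and the array values cannot be assigned to a start.

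Intensities were scaled so that every array had the same distribution and are called scaled intensity here. A floor of 32 was then set before log2 was taken, since dim values lie around 0. A probe set was tested where it lay above the floor on at least 3 arrays, and 6 of the 12 member probe sets did. These were the 3 of MITF and 3 of the 4 of TFE3, while TFEB and TFEC had 0. A difference was called at an adjusted p under 0.05 in limma, over all 30355 probe sets tested.

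Replicate DMSO arrays correlated at 0.988 to 0.992, and the number of arrays limits the precision. The 6 melanocyte markers on the array (such as MLANA, PMEL and SOX10) were above the floor on every array of SKMEL5 and WM2664, where they summed to between 16523 and 42141. In A375 2 of the 6 were, with sums of 194 to 1483. Of 5 leukocyte markers, PTPRC and CD14 were at or below the floor on every array, CD3E and LYZ in SKMEL5 and WM2664 only, and 1 was above it on every A375 array, with sums of 47.4 to 138 over the lines. Fibroblast markers summed to between 553 and 5601 with COL3A1 at the floor throughout, and keratinocyte markers to between 2189 and 4211 with KRT5 and DSG3 at the floor throughout; 1 or 2 of each list were above the floor on every array of a line, and the part of these signals in the results was not tested. On 3 DMSO arrays, probe sets bright in another line stood above the line's own level. The median excess was 2.16% of the SKMEL5 level on WM2664 DMSO 6 h replicate 1, 0.94% of the A375 level on WM2664 DMSO 24 h replicate 2, and 0.85% of the SKMEL5 level on A375 DMSO 6 h replicate 1.

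In cells given DMSO, MITF RNA was highest in SKMEL5, lower in WM2664 and lowest in A375. On probe set 226066_at the 4 DMSO arrays of a line ran from 6600 to 6851 in SKMEL5, with a median of 6748. They ran from 4981 to 5126 in WM2664 (median 5055) and from 407 to 468 in A375 (median 443). The lines did not overlap. Each step was called: WM2664 stood -0.41 ± 0.05 (log2 difference ± SE) from SKMEL5 (adjusted p 0.00021), and A375 stood -3.52 ± 0.05 from WM2664 and -3.94 ± 0.05 from SKMEL5 (adjusted p 4.40e-10 and 2.72e-10). The A375 level was 11.5-fold below that of WM2664 and 15.3-fold below that of SKMEL5. Differences of level between lines were common on these arrays, with 29.2% of probe sets called lower in WM2664 than in SKMEL5, 30.7% lower in A375 than in SKMEL5 and 30.1% lower in A375 than in WM2664.

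The other MITF probe sets kept that order. Probe set 207233_s_at ran from 6317 to 6437 in SKMEL5, 4339 to 4524 in WM2664 and 330 to 437 in A375, with differences of -0.53 ± 0.08 for WM2664 from SKMEL5 and -3.58 ± 0.08 for A375 from WM2664. It followed 226066_at with a Pearson r of 0.997 over the 18 arrays, a description in which the lines' levels carry most of the spread. Probe set 1554874_at was dimmer, at 113 to 157 in SKMEL5 and 32.4 to 49.8 in WM2664. All 4 of its DMSO values in A375 lay below the floor, between 5.79 and 13.6, so its A375 level was at least 4.18-fold below that of SKMEL5. Time in DMSO alone moved none of the 3 probe sets past the threshold: on 226066_at 24 h differed from 6 h by -0.03, -0.02 and 0.05, each ± 0.08, in SKMEL5, WM2664 and A375 (adjusted p 0.917, 1 and 0.935).

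**Figure D1:**
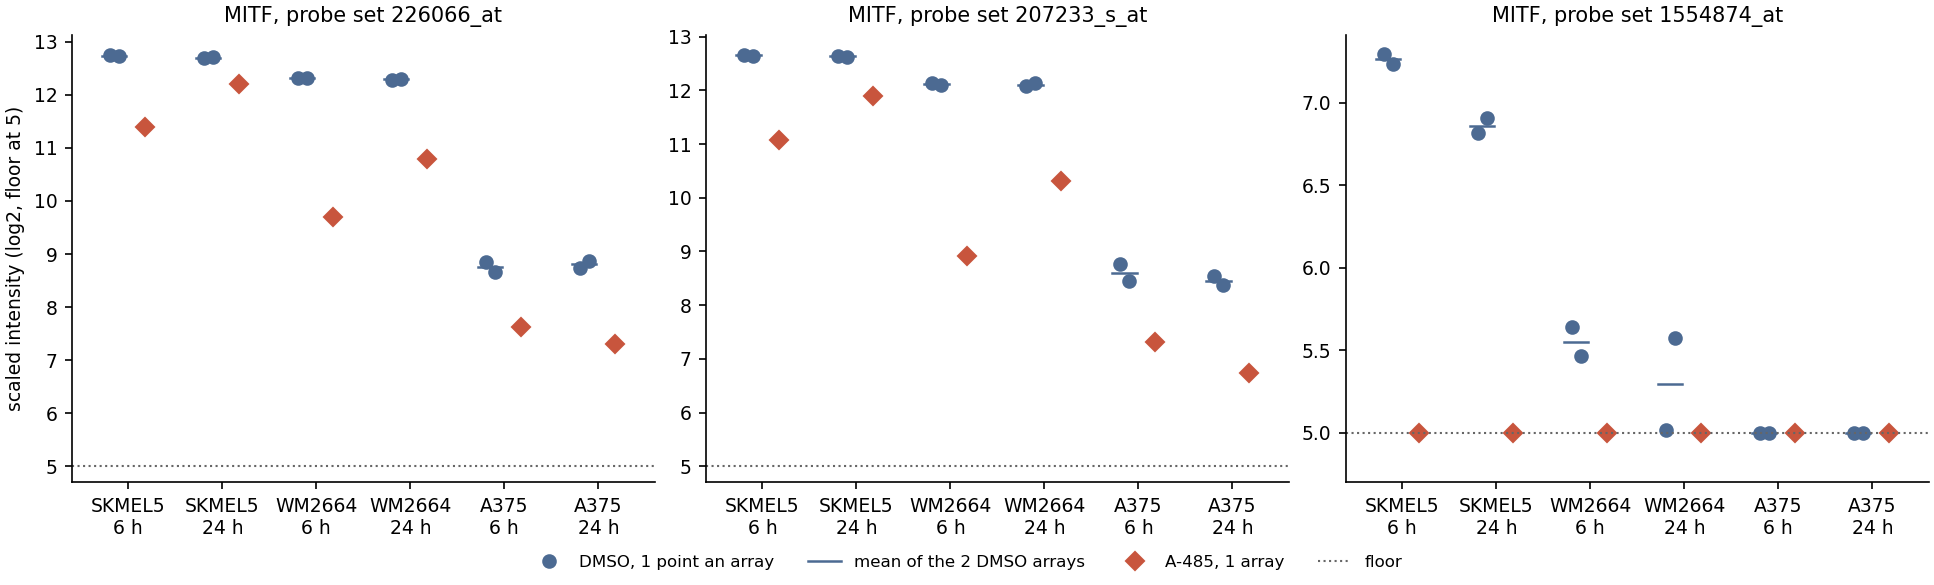
Scaled intensity (log2, floor at 5) of the 3 MITF probe sets on each of the 18 arrays, by line and time; circles are DMSO arrays, bars their mean, diamonds the single A-485 array and the dotted line the floor. On the brighter pair of probe sets every diamond lies below both DMSO circles of its group, and on 1554874_at all 6 A-485 arrays lie at the floor.

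MITF RNA was lower with A-485 in each line at both times. In SKMEL5 at 6 h, 226066_at read 6851 and 6784 in DMSO and 2701 with A-485. In WM2664 it read 5066 and 5126 against 831, and in A375 460 and 407 against 198. Each A-485 array lay below both DMSO arrays of its line. For this order of arrays, and the like orders given below, the share of all probe sets was not counted. A-485 left 39.6% of the DMSO level in SKMEL5, 16.3% in WM2664 and 45.8% in A375. In bulk RNA, fewer cells with MITF transcript and less of it per cell cannot be told apart.

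On the log2 scale these 6 h differences were -1.34 ± 0.09 in SKMEL5 (limma adjusted p 9.38e-05, 95% interval -1.55 to -1.12), -2.62 ± 0.09 in WM2664 (adjusted p 3.50e-06, -2.83 to -2.40) and -1.13 ± 0.09 in A375 (adjusted p 0.000223, -1.34 to -0.91). The MITF call in A375 was lost on the arrays of that line alone (-1.13, adjusted p 0.0716) and on intensities as deposited with a floor of 1 (-1.10, adjusted p 0.184; range over alternatives 3.44e-05 to 0.184). The background of calls was 7.78% of probe sets lower in SKMEL5, 9.23% in WM2664 and 5.21% in A375. In WM2664 226066_at was number 44 from the lowest of the 30355 differences and 207233_s_at number 15. The same probe sets stood at 445 and 244 in SKMEL5 and at 583 and 449 in A375. On 207233_s_at the differences were larger in size, at -1.58, -3.20 and -1.29 (each ± 0.13), and all were called.

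At 24 h the fall was smaller in SKMEL5 and WM2664. In SKMEL5 226066_at read 6600 and 6712 in DMSO and 4714 with A-485, which is 70.8% of DMSO. In WM2664 it read 4981 and 5044 against 1762, or 35.1%, and in A375 426 and 468 against 159, or 35.6%. Again no A-485 array overlapped its DMSO pair. The differences were -0.50 ± 0.09 in SKMEL5 (limma adjusted p 0.00547), -1.51 ± 0.09 in WM2664 (adjusted p 2.71e-05) and -1.49 ± 0.09 in A375 (adjusted p 4.52e-05). The background at 24 h was 12.6%, 11.7% and 6.23% of probe sets lower. In SKMEL5 the difference ranked 4144 from the lowest, while it ranked 528 in WM2664 and 372 in A375.

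The change between the times was tested directly. From 6 h to 24 h the difference from DMSO rose by 0.84 ± 0.13 in SKMEL5 (limma adjusted p 0.00733) and by 1.11 ± 0.13 in WM2664 (adjusted p 0.00372), where 3.78% and 3.01% of probe sets were called higher. In A375 the change was -0.37 ± 0.13 and was not called (adjusted p 0.263, 95% interval -0.67 to -0.06). Averaged over the lines, the difference from DMSO was -1.69 ± 0.05 at 6 h and -1.17 ± 0.05 at 24 h, both called, against 13.6% and 17.4% of probe sets lower. Its change was 0.53 ± 0.08 (adjusted p 0.0040). That mean change rests on SKMEL5 and WM2664: over the other lines it was 0.24 without a WM2664 A-485 array and 0.37 without a SKMEL5 one (adjusted p 0.182 and 0.0585), and 0.97 without an A375 one (adjusted p 0.000508). Probe set 207233_s_at gave 0.84 in SKMEL5, 1.41 in WM2664 and -0.42 in A375, called in the first pair (adjusted p 0.0319, 0.00569 and 0.383).

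The lines differed in the size of the response. On 226066_at the response of WM2664 minus that of SKMEL5 was -1.28 ± 0.13 at 6 h and -1.01 ± 0.13 at 24 h (limma adjusted p 0.00201 and 0.00265), differences called lower for 1.83% and 4.74% of probe sets. Set against the mean response of SKMEL5 and WM2664, that of A375 differed by 0.85 ± 0.11 at 6 h, a smaller fall (adjusted p 0.00356), and -0.49 ± 0.11 at 24 h, a larger one (adjusted p 0.0222). For the first, 4.12% of probe sets were called higher, and for the second 8.01% lower. That mean joins unlike lines: at 6 h A375 (-1.13) stood nearer SKMEL5 (-1.34) than WM2664 (-2.62). At 24 h A375 (-1.49) stood beside WM2664 (-1.51), with SKMEL5 at -0.50. Probe set 207233_s_at gave -1.62 and -1.05 for WM2664 against SKMEL5 and 1.10 for A375 at 6 h, all called, and -0.45 ± 0.16 for A375 at 24 h, not called (adjusted p 0.101). The 24 h difference of A375 also missed the threshold on 226066_at without A375 DMSO 24 h replicate 2 (-0.42, adjusted p 0.0522). With the intensities taken as deposited, none of these differences between lines or times on 226066_at was called, nor was the 24 h fall in SKMEL5 (-0.64, adjusted p 0.102), while the other 5 falls were.

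The dim MITF probe set 1554874_at fell in SKMEL5 from 157 and 150 to 24.7 at 6 h and from 113 and 120 to 23.7 at 24 h. The A-485 arrays lay below the floor, so the log2 differences of -2.26 and -1.86 are bounds, and the falls were at least that large (limma adjusted p 0.000273 and 0.000337). The 24 h bound lies beyond the -0.50 and -0.74 of the brighter probe sets in the same samples. In WM2664 it read 49.8 and 44.2 against 19.5 at 6 h, and 32.4 and 47.6 against 4.90 at 24 h. Those differences, -0.55 ± 0.19 and -0.29 ± 0.19 after the floor, were not called (adjusted p 0.0886 and 0.341), and their DMSO side lies within 2-fold of the floor. In A375 all 6 values were below the floor and no difference can be read. The A375 DMSO pairs of this probe set add no spread, so its SEs and adjusted p can be too small.

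On A375 DMSO 6 h replicate 1, where probe sets bright in SKMEL5 were raised as given above, an equal share of the SKMEL5 MITF level would come to 57.3 on 226066_at. The array read 460 and its replicate 407. Without it the A375 difference at 6 h was -1.04 and was called. The source of the excess was not tested. Without all 3 arrays that showed such an excess, the A375 and WM2664 differences on 226066_at were called at both times.

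TFE3, the family member that relays nutrient state together with TFEB, differed from MITF in the order of the lines. On its brightest probe set, the response also ran the other way in WM2664 and, at 24 h, in SKMEL5. In DMSO, probe set 212457_at ran from 1204 to 1235 in A375 (median 1213), 743 to 804 in SKMEL5 (median 770) and 403 to 543 in WM2664 (median 425). No line overlapped another. A375 stood above SKMEL5 by 0.66 ± 0.09 and above WM2664 by 1.45 ± 0.09, and WM2664 stood -0.79 ± 0.09 from SKMEL5 (limma adjusted p 0.000183, 1.26e-06 and 7.56e-05). For the A375 comparisons, 35% and 35.5% of probe sets were called higher. MITF was thus lowest, and TFE3 highest, in A375.

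At 6 h, 212457_at read 743 and 764 in DMSO and 798 with A-485 in SKMEL5. It read 420 and 430 against 645 in WM2664, and 1219 and 1204 against 936 in A375. The A-485 array lay above its DMSO pair in SKMEL5 and WM2664 and below it in A375. The rise of 0.60 ± 0.15 in WM2664 was called (limma adjusted p 0.0254, against 10.4% of probe sets higher) but not without either WM2664 DMSO 6 h array (0.59 and 0.62, adjusted p 0.078 and 0.0718; range over all alternatives 0.00116 to 0.269). The differences of 0.08 ± 0.15 in SKMEL5 and -0.37 ± 0.15 in A375 were not called (adjusted p 0.865 and 0.202).

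At 24 h TFE3 RNA was higher with A-485 in SKMEL5 and WM2664. The readings were 804 and 776 against 1388 in SKMEL5, 543 and 403 against 911 in WM2664, and 1207 and 1235 against 1235 in A375. In SKMEL5 and WM2664 the A-485 array stood far above both DMSO arrays, and in A375 it lay level with them. The rises were 0.81 ± 0.15 in SKMEL5 and 0.96 ± 0.15 in WM2664 (limma adjusted p 0.00513 and 0.00268), or 176% and 195% of DMSO, where 15.1% and 13.5% of probe sets were called higher. The SKMEL5 rise was not called on intensities as deposited (0.74, adjusted p 0.135; range over alternatives 0.000246 to 0.427), nor the WM2664 rise on the arrays of that line alone (0.96, adjusted p 0.124; range 0.000158 to 0.158). In A375 the difference was 0.02 ± 0.15 (adjusted p 1, 95% interval -0.33 to 0.36). The response of A375 itself differed from the mean of SKMEL5 and WM2664 at 24 h, -0.87 ± 0.18 (adjusted p 0.0147, 8.01% of probe sets lower), and missed the threshold at 6 h, -0.72 ± 0.18 (adjusted p 0.0546).

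Averaged over the lines, TFE3 stood at 0.10 ± 0.09 at 6 h (limma adjusted p 0.415) and rose by 0.60 ± 0.09 at 24 h (adjusted p 0.00104, against 21.4% of probe sets higher). The change of 0.49 ± 0.12 between the times was called (adjusted p 0.0355, 6.18% higher). It was lost without any 1 of the 10 DMSO arrays other than the WM2664 pair at 24 h, with adjusted p between 0.0507 and 0.0660, so it stands close to the threshold. It fell to 0.37 over the other lines without a SKMEL5 A-485 array (adjusted p 0.201). In all, 14 fits without 1 array lost the call, some of them without an A-485 array of a line other than SKMEL5. Of the 29 alternatives, 11 kept it.

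The dimmer TFE3 probe set 206649_s_at did not show the 24 h rise of SKMEL5. It read 175 and 296 against 226 there, and 124 and 131 against 164 in WM2664. The A-485 value lay between the DMSO replicates in SKMEL5 and above them in WM2664. Its differences were -0.01 ± 0.34 and 0.36 ± 0.34, with 95% intervals from -0.79 to 0.77 and from -0.42 to 1.14, and none of its 6 differences per line and time was called (adjusted p 0.140 to 1). The 212457_at rise in SKMEL5 lies outside the first of these intervals and that in WM2664 inside the second. In DMSO it kept the order of lines, 244 to 311 in A375, 142 to 296 in SKMEL5 and 94.8 to 136 in WM2664. The difference of A375 from SKMEL5, 0.47 ± 0.19, was not called (adjusted p 0.0625), and the lines overlapped.

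**Figure D2:**
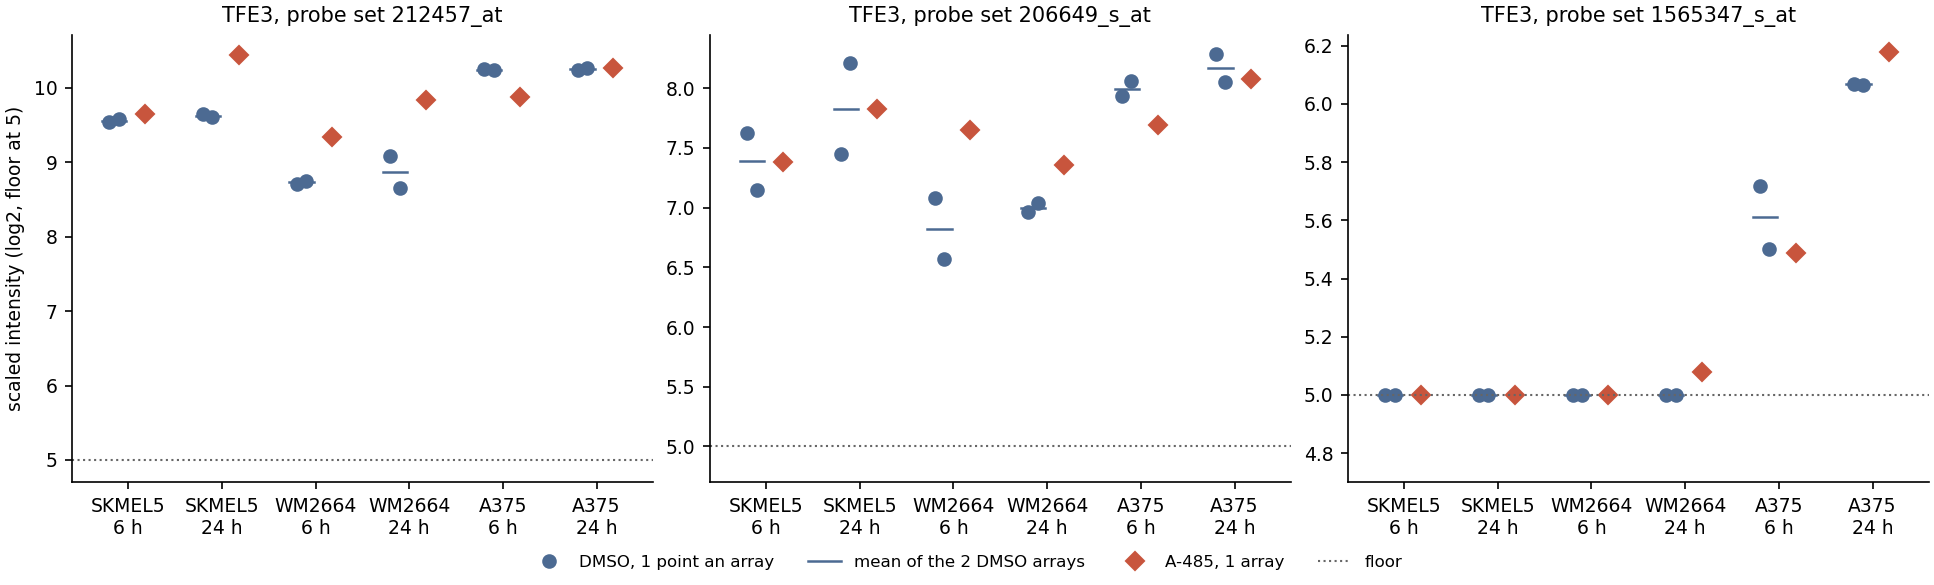
Scaled intensity (log2, floor at 5) of the 3 tested TFE3 probe sets on each of the 18 arrays, by line and time, with circles for DMSO arrays, bars for their mean, diamonds for the single A-485 array and a dotted line at the floor. On 212457_at the diamonds at 24 h lie above the DMSO circles in SKMEL5 (1388) and WM2664 (911) and level with them in A375 (1235).

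Probe set 1565347_s_at of TFE3 gave a signal mainly in A375. Its 6 values there ran from 44.9 to 72.4, while all 8 DMSO values of SKMEL5 and WM2664 were below 0, from -79.1 to -2.94. A375 stood at least 0.84 above either line in DMSO. With A-485 the only value above the floor outside A375 was 33.8, in WM2664 at 24 h, and no response was called. In A375 its DMSO level was 52.6 and 45.3 at 6 h, within 2-fold of the floor, and 67.1 and 66.9 at 24 h. This is a rise of 0.46 ± 0.07 with time (limma adjusted p 0.0326, against 0.807% of probe sets higher). The 8 DMSO values of SKMEL5 and WM2664 were all set to the floor, so their pairs add no spread. That SE and adjusted p can therefore be too small, and the call is weak evidence of a change with time. Probe set 1567704_at never passed the floor, with values from 3.92 to 30.9.

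**Figure D3:**
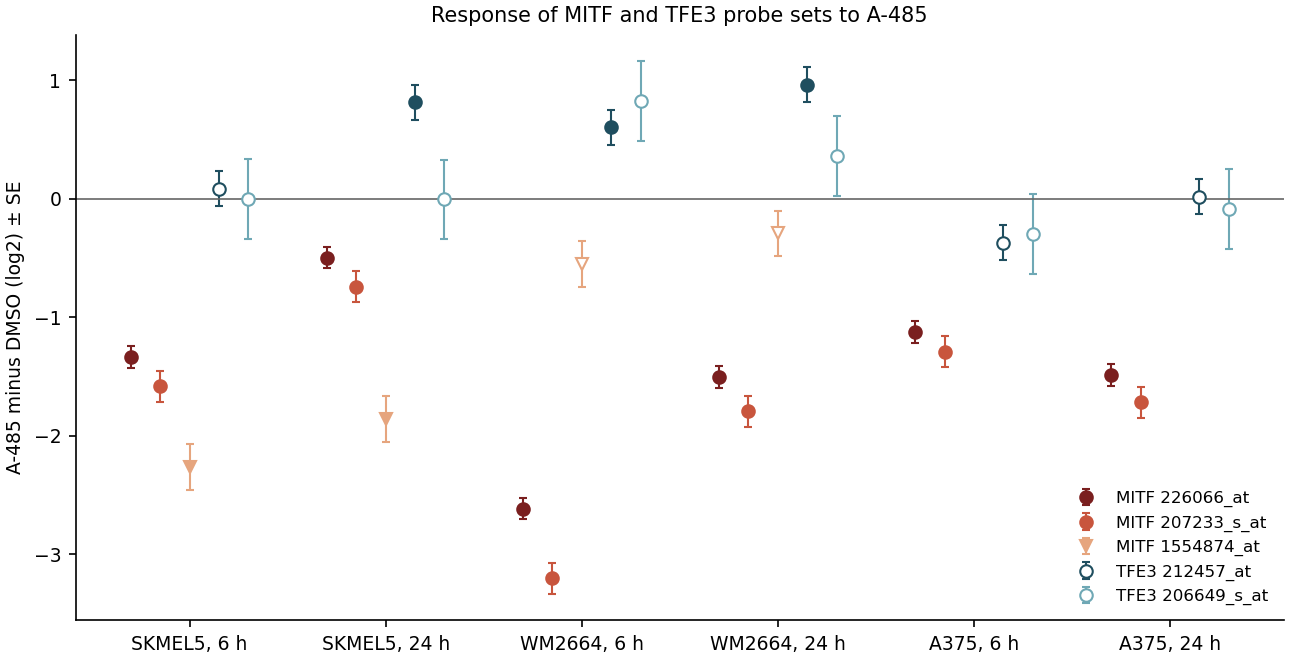
Difference A-485 minus DMSO (log2 ± SE) of 5 member probe sets in each line and time; filled symbols were called at an adjusted p under 0.05 and open ones were not, and triangles have their A-485 array at the floor. The brighter MITF probe sets lie below 0 in all 6 comparisons, from -0.50 to -3.20, and TFE3 212457_at lies above 0 and is called in WM2664 at both times and in SKMEL5 at 24 h.

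TFEB, the main regulator of lysosome genes, was not measurable on most arrays. Probe set 221866_at passed the floor on 2 of the 18, A375 DMSO 6 h replicate 2 (89.0) and A375 A-485 6 h (53.1). The replicate of the former read -6.36, so the pair lies far apart. The other 15 values ran from -8.11 to 26.0. Probe set 50221_at lay between -15.1 and 25.5 and never passed the floor, and 7 of its values were below 0. No fold change is given for TFEB.

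TFEC, the macrophage member, was not above the floor on any array. Its 3 probe sets ran from -9.26 to 29.9 (206715_at), -8.73 to 19.2 (232383_at) and -11.6 to 14.3 (236995_x_at). The 6 A375 values of 206715_at, from 13.8 to 29.9, lay above the 12 values of SKMEL5 and WM2664, which reached 11.2. The other TFEC probe sets did not show this order. On 232383_at the A375 values ran from -8.73 to 19.2 and on 236995_x_at from -11.6 to 2.72, overlapping those of the other lines. All these values were below the floor of 32, so no difference between lines was tested. At this signal a low level of TFEB or TFEC transcript was not detectable, which does not show that it is absent.

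**Figure D4:**
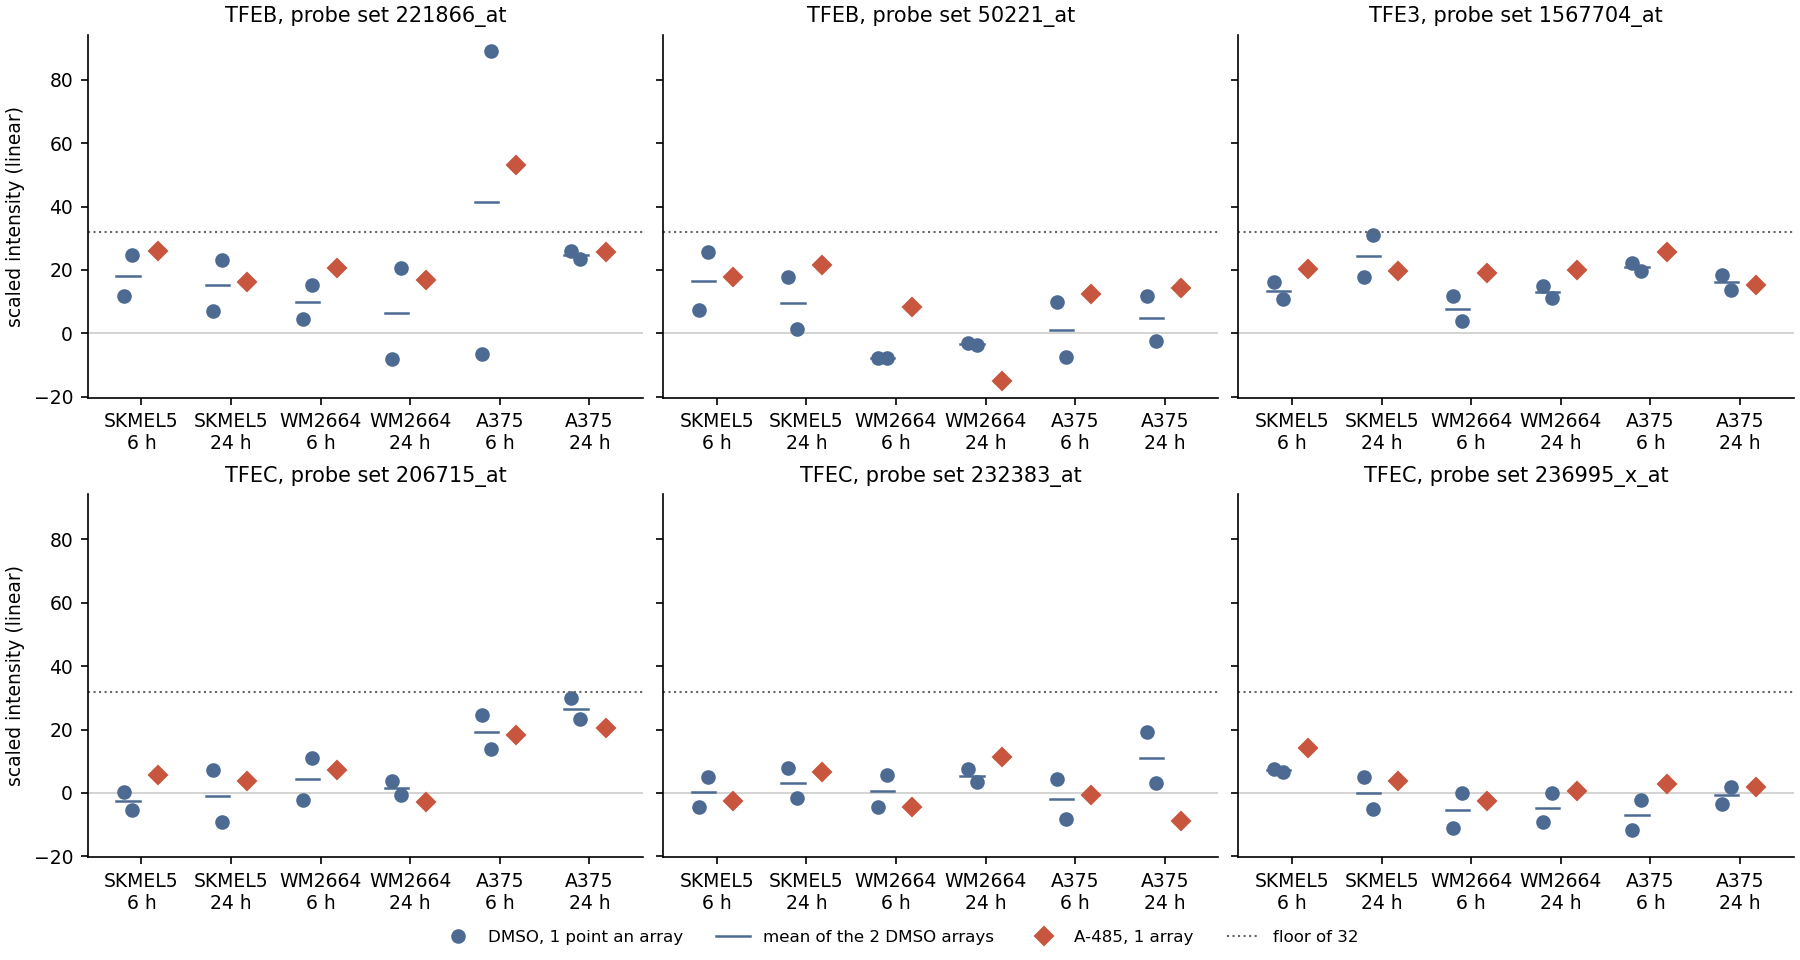
Scaled intensity (linear) of the 6 member probe sets that were not tested, on each of the 18 arrays, with circles for DMSO, bars for the mean of the pair, diamonds for A-485 and a dotted line at the floor of 32. Points above the floor occur on 2 arrays, both of A375 at 6 h on TFEB 221866_at (89.0 and 53.1).

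Several genes known to act upstream of MITF, as transcription factors or as receptors, were also called lower in the mean of the lines, though not evenly by line. Of 16 such genes listed, 15 were on the array and 14 were tested by their brightest probe set. Averaged over the lines, 9 were called lower and 2 higher at 6 h, and 8 lower and 3 higher at 24 h, against 14.9% and 20.6% of all 13308 genes tested called lower and 20.8% and 24.8% higher. The list's median was -0.51 and -0.35, against 0.03 and 0.02 for all genes. SOX10, which drives the M promoter, fell at 6 h, with differences of -2.05 in SKMEL5, -1.13 in WM2664 and -2.85 in A375 (each ± 0.13). At 24 h its difference was -0.35 and -0.27 in SKMEL5 and WM2664, not called (limma adjusted p 0.0965 and 0.193), and -1.23 in A375, called.

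TFAP2A, an AP-2 factor that acts beside MITF in melanocytes, fell in all 6 comparisons: in SKMEL5, WM2664 and A375 it stood at -1.77, -1.72 and -1.10 after 6 h, then at -0.86, -0.93 and -1.15 after 24 h. The zinc finger factor ZEB2 fell at 6 h, with -1.19, -1.50 and -0.79 in the same order, and stood at -0.14, -0.58 and -0.55 at 24 h, where only the WM2664 value was called (adjusted p 0.657, 0.0374 and 0.0743). POU3F2, the neural factor BRN2 that can repress MITF in melanoma, fell in each line, its 6 h differences being -1.37, -2.05 and -1.39 and its 24 h ones -1.32, -1.24 and -2.09, the last a bound because the A-485 array lay at the floor. PAX3, another driver of the M promoter, was called higher in the mean at both times, at 0.34 and 0.41. By line it was called only in A375 at 24 h (0.72, limma adjusted p 0.0226). CREB1, whose protein binds the response element shown above, was also called higher in the mean, at 0.25 and 0.22. In no single line was CREB1 called at either time (limma adjusted p 0.105 to 0.377). LEF1, whose protein binds the other motif, stood at -1.32, -0.70 and 0.10 at 6 h in SKMEL5, WM2664 and A375 and at -0.76, 0.31 and 0.83 at 24 h, all called except 0.10 and 0.31 (adjusted p 0.819 and 0.105). These genes were named by the size of their mean difference at 6 h, except PAX3, CREB1 and LEF1, which were chosen after their values were seen.

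Many known MITF targets were called lower in SKMEL5 and WM2664, and in A375 a fold could often not be read, because 6 of 12 pigmentation targets and 8 of 18 others had a side at the floor at each time. Of 12 pigmentation targets tested (14 listed), 5 were called lower in SKMEL5 and 5 in WM2664 at 6 h, against 8.72% and 10.2% of genes, and 7 and 8 at 24 h, against 14.9% and 14.2%. Of 18 other targets tested (20 listed), 12 and 13 were called lower at 6 h and 12 and 14 at 24 h. None of either list was called higher in these lines, against 10.7% and 13.4% of genes at 6 h and 18.8% and 16.2% at 24 h. In A375, 2 of each list were called lower at each time, against 6.27% of genes at 6 h and 7.64% at 24 h, and 1 of each was called higher at 24 h, against 7.05%. The medians of the mean response were -0.47 and -0.93 for the pigmentation targets at 6 h and 24 h, and -0.71 and -0.90 for the others. Those of all genes were 0.03 and 0.02. In A375 alone the list medians were -0.44 and 0 for the pigmentation targets and -0.03 and -0.007 for the others. The A375 values at 6 h include TYRP1 (-1.24) and MLANA (-1.52), both not called and with a side at the floor. Their DMSO pair includes A375 DMSO 6 h replicate 1, raised at probe sets bright in SKMEL5. TYR, PMEL, MLANA and OCA2 were called in no line at either time. Their SEs were 0.30, 0.76, 0.95 and 0.79, against 0.074 for MLPH. MLANA stood at -2.46 in WM2664 at 24 h and was not called. TYRP1, with an SE of 0.77, was called only there, at -4.02. At such SEs a missing call does not show that a gene was unchanged. Whether the raised A375 array widened them was not tested.

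Among the targets named, TRPM1 and SLC45A2 stood further from DMSO at 24 h, when MITF stood nearer to it in SKMEL5 and WM2664. TRPM1, a melanocyte ion channel whose gene hosts a microRNA, stood at -1.94 and -2.72 at 6 h and at -4.66 and -5.13 at 24 h in SKMEL5 and WM2664, the last a bound at the floor. SLC45A2, a melanosome transporter, stood at -0.58 and -0.80 and then at -1.81 and -2.88. GALNT3, a glycosyltransferase, stood at -2.26 and -3.92 and then at -4.09 and -3.78, all called like those before. TBX2, a senescence-blocking factor, stood at -2.30 and -3.76 at 6 h, both called, and at -0.32 (adjusted p 0.362, not called) and -0.89 (called) at 24 h. MLPH, which links melanosomes to myosin, was the one named target called lower in all 6 comparisons, with -1.12 and -0.71 in A375. IRF4, a pigment-cell transcription factor, stood at -3.14 and -2.94 at 6 h, and PPARGC1A, a coactivator of mitochondrial genes, at -2.43 and, as a bound, -3.13, all called. RAB38, a melanosome trafficking GTPase, stood at -0.61 and -0.90 at 6 h, both called, and rose in A375 at 24 h by 0.66. From 6 h to 24 h, 0 of the 12 pigmentation targets were called higher and 3 lower in SKMEL5 and in WM2664, the same 3 in both: TRPM1, SLC45A2 and the melanosome receptor GPR143, named because the count is small. Of the 18 others, 3 were called higher and 3 lower in SKMEL5, and 1 and 4 in WM2664. The background was 4.54% of genes higher and 5.64% lower in SKMEL5, and 3.53% and 4.46% in WM2664. The change of TBX2 was 1.98 and 2.87, both called, and that of GALNT3 -1.83 in SKMEL5, called, and 0.14 in WM2664, not called (adjusted p 0.663).

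Few lysosome and autophagy genes that TFEB and TFE3 are known to bind were called higher in SKMEL5 and WM2664 at 24 h, where TFE3 212457_at rose. Of 31 tested (34 listed), 0 were called higher and 7 lower in SKMEL5 at 24 h, and 1 higher and 7 lower in WM2664. The background there was 18.8% and 16.2% of genes higher and 14.9% and 14.2% lower. The median of the mean response was -0.04 at 6 h, with 3 called higher and 5 lower against 20.8% and 14.9% of genes, and -0.08 at 24 h, with 5 higher and 7 lower against 24.8% and 20.6%. The 24 h share of lower calls is near that background. The 6 h split turned with the scaling, to 4 higher and 0 lower on the intensities as deposited, where 27.7% of genes were called higher and 4.57% lower and the median of all probe sets was 0.23. MCOLN1, the lysosomal calcium channel, stood at 0.32 ± 0.09 in the mean at 6 h and -0.41 ± 0.09 at 24 h (limma adjusted p 0.0242 and 0.00719). SQSTM1, an autophagy receptor, fell at 6 h in the 3 lines, with -0.33, -0.50 and -0.30. WIPI1, which acts in autophagosome formation, stood at -1.13 in WM2664 at 6 h, and NAGLU, a lysosomal glycosidase, at -0.63 and -0.94 in SKMEL5 and WM2664 at 24 h, all called. In DMSO 28 of the 31 were lower in A375 than in SKMEL5 and 1 was higher, against 33.5% of genes lower and 37.8% higher. From WM2664, A375 had 17 lower and 5 higher, against 31.5% and 39.1%, and WM2664 had 24 lower and 6 higher than SKMEL5, against 32.9% and 29.9%.

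The genes that hold TFEB and TFE3 in the cytoplasm, or release them, were called in both directions. Of 25 tested (26 listed), 4 were higher and 1 lower in the mean at 6 h, and 9 higher and 6 lower at 24 h, beside 20.8% and 24.8% of all genes higher and 14.9% and 20.6% lower. On the intensities as deposited, 10 were higher and 0 lower at 6 h, beside 27.7% and 4.57% of genes. LAMTOR3, a subunit of the lysosomal Ragulator complex, rose at 6 h by 0.51, 0.39 and 0.41 in SKMEL5, WM2664 and A375, and was not called at 24 h (-0.013, 0.064 and 0.20, adjusted p 1, 0.679 and 0.167). MTOR, the kinase itself, stood at 0.25 and 0.36 in the mean at the 2 times, both called. The calcineurin subunits PPP3CA and PPP3R1, parts of the phosphatase that releases TFEB, stood at -0.23 and 0.32 in the mean at 6 h, both called, and at -0.014 (adjusted p 0.816, not called) and 0.32 (called) at 24 h.

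The 8 genes whose pattern over the 18 arrays was most like MITF 226066_at were BAMBI, TFAP2A, GPRC5B, SGK1, TANC1, NAV2, FMN1 and KIF13A. They were the highest by Pearson r of log2 values among 11365 genes above the floor on at least 9 arrays, with r from 0.976 (KIF13A) to 0.990 (BAMBI). The arrays share lines, and all 8 genes and MITF lay lowest in A375. With each line's mean taken out, r lay between 0.883 (NAV2) and 0.958 (BAMBI). Because the genes were picked on these same arrays, such likeness follows in part from the choice. The within-line r of the other candidates was not counted. BAMBI, a decoy receptor for TGF-beta signals, was called lower in all 6 comparisons, from -1.09 in A375 at 6 h to -2.71 in WM2664 at 6 h. TANC1, a scaffold protein, stood at -1.01 in SKMEL5 at 6 h (called) and at 0.0091 at 24 h (adjusted p 1, not called), where MITF was still called lower.

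**Figure D5:**
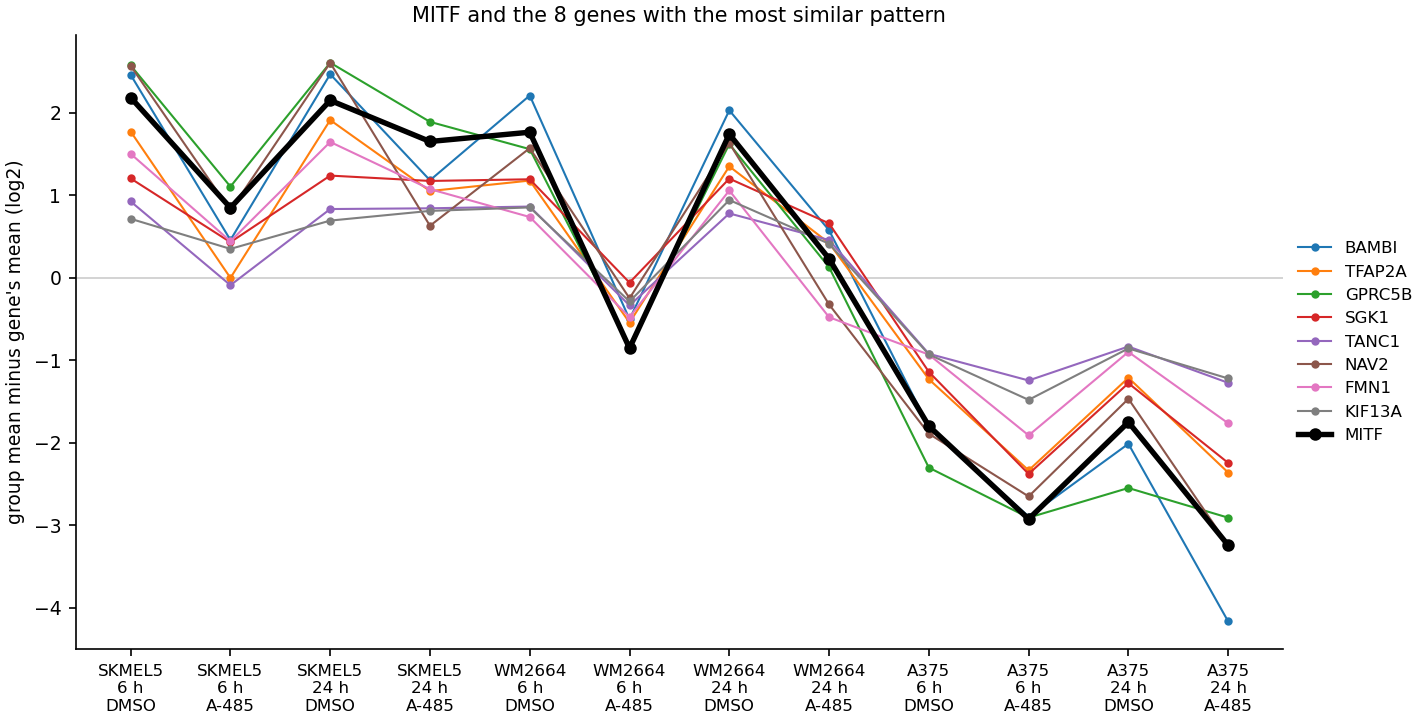
Mean log2 scaled intensity of MITF 226066_at (black) and of the 8 genes most like it in each of the 12 groups, minus the gene's mean over the groups. All curves are lower in A375 and dip with A-485 at 6 h, and the deepest MITF dip is that of WM2664 at 6 h (-2.62 from DMSO).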

How the data were processed

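The data are 18 HG-U133 Plus 2.0 arrays by Affymetrix, 12 of DMSO and 6 of A-485 samples. Per the labels' protocols, total RNA was isolated with Qiazol and RNeasy columns and labelled with the 3' IVT Plus kit. The authors deposited linear intensities; for the software, background correction and scaling behind them, the sources used here give nothing. The share of an array's values below 0 was 19.3% to 22.9%, and array medians ran from 19.5 to 29.0, so dim probe sets carry little signal over background.

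Probe sets were named through the platform annotation, with symbols updated by Entrez ID from RefSeq: of 54613, 41091 had 1 symbol, 1801 several and 11721 none. Intensities were quantile-normalised on the linear scale, raised to a floor of 32 and put on the log2 scale. Probe sets above the floor on at least 3 arrays were tested (30355), in limma 3.58.1 (R 4.3.3) with a mean for each of the 12 groups of line, treatment and time. All 18 arrays entered, the 6 residual degrees of freedom come from the DMSO pairs, and p-values were adjusted within each contrast (Benjamini-Hochberg, threshold 0.05). A DMSO pair at the floor adds no spread but still counts as a degree of freedom. For probe sets at the floor in a line, SEs can therefore be too small. An A-485 difference that has its dimmer side at the floor is written "at least". The fit was tested on simulated data.

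The members and gene lists were chosen with earlier results of these data known. Every member probe set is described, with up to 4 genes of each list called in the mean at 6 h with the largest difference, and the 8 genes most like MITF. DMSO replicate numbers did not pair the samples: deviations of same-numbered arrays correlated at -0.0493 to 0.0412 over 15 pairs of groups, with 0 over 0.1. Alternatives changed the scaling, floor, filter, model, replicate block and arrays used. Some were chosen after seeing the data. These were the fit without the 3 raised DMSO arrays and the fits of the mean change between times without an A-485 array. Promoter windows came from a RefSeq table, and protein sequences and a whole genome were not used here.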

Additional observations from a re-analysis of the deposited data

Results flagged for a closer look

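The size of the A-485 response differed between lines or between times for MITF and TFE3, by a limma test of the difference itself. On MITF 226066_at the response of WM2664 minus that of SKMEL5 was -1.28 at 6 h and -1.01 at 24 h, and that of A375 minus the mean of the others was 0.85 at 6 h and -0.49 at 24 h. On 207233_s_at the same differences were -1.62, -1.05 and 1.10, the last at 6 h.

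On the dim MITF probe set 1554874_at, the response of WM2664 minus that of SKMEL5 was 1.71 at 6 h and 1.57 at 24 h, and that of A375 minus the others 1.41 and 1.08. These have the opposite sign to those of the brighter probe sets for WM2664. All A-485 arrays of 1554874_at lay at the floor, as did DMSO in A375, and DMSO in WM2664 lay just above it, so these 4 values can grow no larger than the DMSO level over the floor allows.

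From 6 h to 24 h the response of MITF rose by 0.84 in SKMEL5, 1.11 in WM2664 and 0.53 in the mean on 226066_at, and by 0.84, 1.41 and 0.61 on 207233_s_at. The mean response of TFE3 on 212457_at rose by 0.49 between the times, and its response in A375 minus the others was -0.87 at 24 h. No group had 4 or more arrays, so no array was compared with its own group for standing apart.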

How the results depend on the processing

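MITF 226066_at and 207233_s_at were lower with A-485 in each line and time under every alternative run, from -2.65 to -0.49 and from -3.25 to -0.74. Calls depended mostly on scaling between arrays. With intensities as deposited, MITF in SKMEL5 at 24 h (-0.64) and TFE3 212457_at there (0.74) were not called, nor were the MITF changes between times (0.44 in SKMEL5, 0.83 in WM2664, 0.28 in the mean), the MITF differences between lines (-1.07 and -0.68 for WM2664 from SKMEL5, 0.51 and -0.57 for A375 from the others), the TFE3 change between times (0.28) and its A375 difference at 24 h (-1.05). Signs turned for TFE3 in A375 at 24 h (-0.048), 206649_s_at in SKMEL5 at 6 h (0.35) and time in DMSO for MITF in SKMEL5 (0.051) and TFE3 in WM2664 (-0.0093). With a floor of 1 as well, these values stayed and 7 further values were not called: MITF at 6 h in SKMEL5 (-1.08) and A375 (-1.10), at 24 h in WM2664 (-1.32) and A375 (-1.55), and TFE3 in WM2664 (1.07 and 1.26) and in the mean at 24 h (0.65), while 1565347_s_at turned to 2.98 in the mean at 6 h. Calls in the mean then numbered 1341 at 6 h and 1478 at 24 h, against 9311 and 11780; with intensities as deposited alone, 5333 at 24 h.

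Scaling to the 75th percentile turned TFE3 in A375 at 24 h (-0.021) and time in DMSO for MITF in WM2664 (0.039) and TFE3 in A375 (-0.045), and ended the call of the 24 h MITF difference of A375 (-0.40). A floor of 16 turned 1565347_s_at (0.18 in the mean at 6 h) and ended the TFE3 change between times (0.49), as did no filter (0.49), which also ended TFE3 in WM2664 at 6 h (0.60). The TFE3 difference of A375 at 6 h (-0.72) passed with a floor of 64, an intensity trend or 1 probe set a gene. Fitted on the arrays of a line alone, TFE3 in WM2664 (0.60 and 0.96) and MITF in A375 at 6 h (-1.13) lost their calls, and TFE3 in A375 at 6 h (-0.37) and its change in SKMEL5 (0.73) gained them. An additive model of line and treatment ended the mean TFE3 rise at 24 h (0.60), with 4639 and 3427 calls at the 2 times. With the replicate block, TFE3 in A375 at 24 h turned to -0.017 (adjusted p 0.995), no other member call changed, and calls in the mean numbered 8011 and 10347. Without the 3 DMSO arrays raised at probe sets bright in another line, TFE3 passed in A375 at 6 h (-0.36), for its change in SKMEL5 (0.73), for WM2664 against SKMEL5 at 6 h (0.50) and for A375 against the others at 6 h (-0.70), and WM2664 against SKMEL5 turned at 24 h (-0.067). The causes were not tested.

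Leaving out 1 array at a time gave, for MITF, 0.24 to 0.97 for the mean change between times, -0.56 to -0.42 for the 24 h difference of A375 and -0.040 to 0.14 for time in DMSO in A375. For TFE3 212457_at it gave 0.37 to 0.56 for the mean change between times, 0.70 to 0.76 for that in SKMEL5 and 0.14 to 0.57 for that in WM2664. The TFE3 response ranged from 0.59 to 0.62 in WM2664 at 6 h, -0.38 to -0.36 in A375 at 6 h, -0.00040 to 0.032 in A375 at 24 h and -0.14 to 0.34 in the mean at 6 h. Its line differences ranged from 0.50 to 0.54 and -0.067 to 0.36 for WM2664 from SKMEL5 and from -0.73 to -0.71 for A375 at 6 h, and time in DMSO from -0.077 to 0.35 in WM2664 and -0.0051 to 0.027 in A375. For 206649_s_at the ranges were -0.24 to 0.23 and -0.39 to 0.37 in SKMEL5, -0.20 to 0.030 in A375 at 24 h, and -0.15 to 0.41 and -0.047 to 0.21 in the mean.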
